A study of Mus musculus with 2 samples.

Results

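The genes described here make, break down and sense prostaglandins, and their transcripts were assayed at day 8 of mouse pregnancy in the stretches of uterine wall that lie between implantation sites. They were chosen by name, as the phospholipase Pla2g4a, the cyclooxygenases Ptgs1 and Ptgs2, the terminal synthases Ptges, Ptges3, Ptgis and Ptgds, the inactivating enzyme Hpgd, and the receptors Ptger3 and Ptgfr, 10 genes in all. Of these 10, 8 had at least 1 probe set named for them alone, as had 12393 genes on the whole array. No probe set was named for Ptgs1, which was not analysed here, and both probe sets named for Ptges3 are shared with its pseudogene Ptges3-ps. In all, 17 probe sets were annotated to the members, and 9 of them gave a signal above the floor described below on at least 1 array.

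The series holds 2 Affymetrix arrays, 1 of uterine RNA from females labelled control and 1 from females labelled Cbs null. Both groups were 4 months old, of a mixed C57Bl/6J X OLA129 background, and taken at the same day of pregnancy. The Cbs null mice are described as homozygous, whereas the exact genotype of the controls, the construction of the null allele and the number of animals behind each RNA are not stated in the labels. Cbs encodes cystathionine beta-synthase, the enzyme that removes homocysteine by joining it to serine. With 1 array per group there is no replicate check of any difference and no p-value, and the number of arrays limits the precision.

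Prostaglandins are short-range lipid signals. Cytosolic phospholipase A2 frees arachidonic acid from membranes, a cyclooxygenase turns it into prostaglandin H2, and a terminal synthase decides which active prostaglandin is formed. In the pregnant rodent uterus these signals are known for raising vascular permeability at implantation, for supporting decidualization and, late in pregnancy, for driving contraction of the myometrium.

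The signals are linear intensities. The 40th percentile over both arrays, 43.2 signal units, served as a floor to which lower values were set, because the order of weak signals cannot be trusted. A gene counted as measured when it exceeded the floor on at least 1 array, which 8410 genes did. The brighter Cbs probe set read 79.8 in control and 42.6 in Cbs null, at least 1.85-fold lower. It passed the floor in control alone, so it could only read lower, and its log2 ratio of -0.89 was -0.44 with probe sets averaged and -0.58 with a pseudocount, so it is a weak check of the label. All 6 smooth muscle and all 7 epithelial markers examined were above the floor on both arrays, as were the uterine patterning gene Hoxa10 and the gland gene Foxa2. Most of these markers are shared with other hollow organs. The only measure of error within the arrays is the spread of log2 ratios between probe sets of the same gene, with an SD of 0.15 where both probe sets read at least 172.8 and 0.26 where the weaker one was dimmer. Differences between animals or RNA preparations are shared by the probe sets of a gene, so this technical SD does not include them.

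Among the members, Ptgs2 and the prostacyclin synthase gene Ptgis read lowest in the Cbs null sample relative to control, at log2 ratios of at most -0.99 and of -0.66, and Hpgd read highest, at 0.40. Pla2g4a, Ptges, Ptger3 and the probe sets shared by Ptges3 differed by 1.12-fold or less. Measured against the floor, no member reached 2-fold in either direction, where 1.51% of measured genes did so. Ptgs2 has only a bound, at least 1.99-fold lower, and it passed 2-fold when the arrays were centred (-1.01), when they were quantile normalized (-1.0) and when the 20th percentile was the floor (-1.60). Of the 6 measured members, 4 were lower and 2 higher by any amount, beside 46.5% of measured genes lower and 53.3% higher. At a looser mark of 1.5-fold, Ptgs2 and Ptgis were lower among the 6 measured members and none was higher, beside 3.39% of measured genes lower and 3.60% higher. The median log2 ratio was -0.11 over the 6 measured members, -0.07 over the 5 members above the floor on both arrays, and 0.02 over all measured genes. Ptgs2 passed the floor on the control array alone, so its direction was fixed by that rule, and the counts and medians are a description only.

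**Figure D1:**
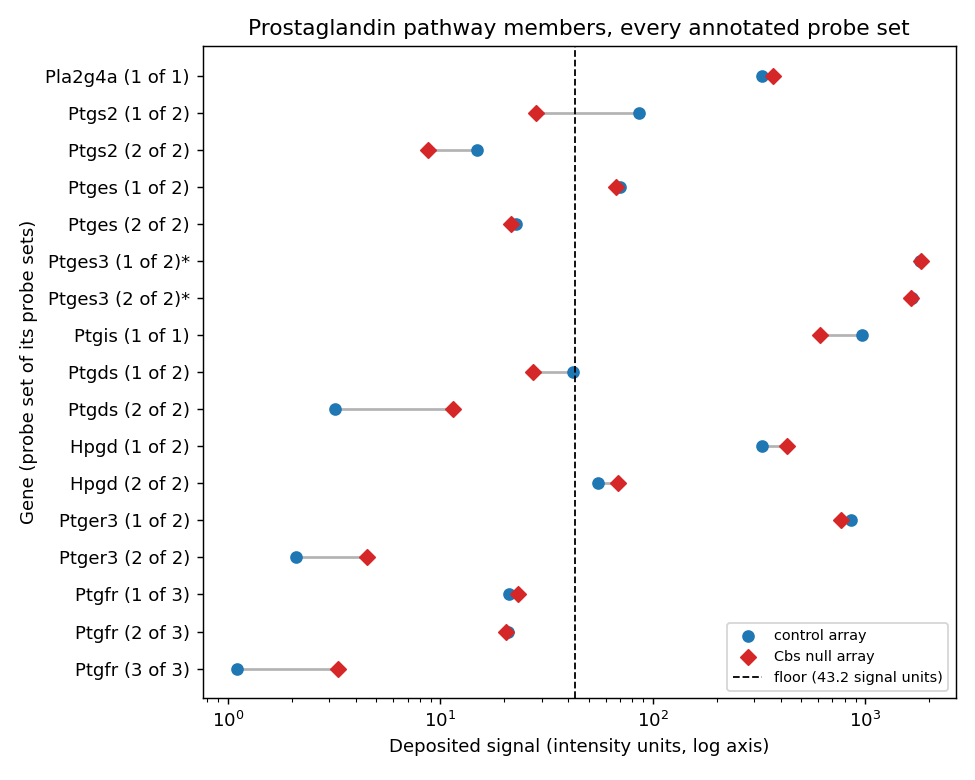
Deposited signal of every probe set annotated to a member (log axis, intensity units) on the control array (circles) and the Cbs null array (diamonds), 1 array each, with the floor of 43.2 as a dashed line. Asterisks mark the probe sets shared by Ptges3 and Ptges3-ps, and the brighter Ptgs2 probe set is the only one whose line crosses the floor.

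Cytosolic phospholipase A2, encoded by Pla2g4a, starts the pathway by cutting arachidonic acid out of membrane phospholipids. Its probe set read 327.3 in control and 366.6 in Cbs null, 1.12-fold higher. That log2 ratio of 0.16 was about the size of the technical SD of 0.15, and 27.1% of measured genes had a ratio at least as high.

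Ptgs2 encodes the inducible cyclooxygenase, the step that commits arachidonic acid to prostaglandins. Its brighter probe set read 86.0 in control and 28.3 in Cbs null. The control signal was thus above the floor and the Cbs null signal below it, at least 1.99-fold lower. The value is a bound set by the floor, and since the gene passed the floor on the control array alone, it could only read lower. The second Ptgs2 probe set, at 14.9 and 8.7, stayed under the floor, so it gives no fold of its own. Ptgs2 lies next to Pla2g4a among the protein-coding genes of chromosome 1.

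The promoter windows of Ptgs2 and Hpgd are shown because these genes, of opposite roles in making and removing prostaglandins, stood at opposite ends of the members with a window in the RefSeq table (build GRCm38.p6). Ptgis has no entry there. Each line gives the 250 bases before the annotated start, on the plus strand of chr1:150099781-150100030 for Ptgs2 and of chr8:56294302-56294551 for Hpgd. A further line gives the 30 bases from the Ptgs2 start onward, chr1:150100031-150100060. Capitals mark letters that match a searched motif on either strand.
Ptgs2, before the start: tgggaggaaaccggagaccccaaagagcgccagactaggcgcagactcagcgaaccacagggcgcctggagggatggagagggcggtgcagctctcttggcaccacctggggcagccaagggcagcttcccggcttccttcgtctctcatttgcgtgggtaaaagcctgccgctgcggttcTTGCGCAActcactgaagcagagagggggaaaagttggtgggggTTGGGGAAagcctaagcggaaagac
Ptgs2, from the start: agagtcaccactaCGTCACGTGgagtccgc
Hpgd, before the start: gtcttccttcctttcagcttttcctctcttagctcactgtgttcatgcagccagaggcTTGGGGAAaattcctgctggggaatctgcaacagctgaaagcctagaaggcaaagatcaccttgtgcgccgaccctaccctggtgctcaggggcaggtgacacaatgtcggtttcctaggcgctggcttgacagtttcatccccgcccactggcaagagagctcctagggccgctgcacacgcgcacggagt

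The motifs were searched in the 300-base windows of all genes in that table, which run to 50 bases past the start. With the start base counted as 1 and the base before it as -1, the Ptgs2 window held the C/EBP core TTNNGNAA at -69 and at -25, letters found in 40.7% of all 32851 windows. It held the E-box CACGTG at 17, found in 7.15% of windows, overlapped by the CRE core TGACG on the opposite strand at 14, found in 20.8%. Among the 10 windows of 9 members, Ptgs2 alone held CACGTG, and Ptges3 was the only other with TGACG. The Hpgd window held 1 C/EBP core at -192 and TATAAA at 5, letters that 13.6% of windows hold. TGACTCA, the AP-1 site, was found for Ptgds alone (5.20% of windows), the NF-kB consensus for Ptgds and Ptges3 (8.46%), and the palindromic estrogen response element for no member (0.07%). These matches describe letters and say nothing about binding in this tissue.

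Of the terminal synthases, Ptgis makes prostacyclin, a vasodilator produced by vessel wall and smooth muscle. Its single probe set read 966.8 in control and 613.7 in Cbs null, 1.58-fold lower. Both readings were far above the floor, the log2 ratio was 4.4 times the technical SD, and 2.56% of measured genes had a ratio that low or lower. Smooth muscle markers were lower in the same sample, 6 of 6, from -0.77 for the enteric gamma actin gene Actg2 to -0.19 for Tagln, with a summed signal of 24119 in control and 17485 in Cbs null. Ptgis at -0.66 lay within that range. The decidual list described below reached that low only through Prl8a2 and Tdo2, below the floor in Cbs null, and Des (-0.68), also a smooth muscle marker. The uterine natural killer list did so only through Gzma, Gzmb and Gzmc, which passed the floor in control alone and could only read lower. The natural killer markers above the floor on both arrays lay from -0.22 to 0.09. The endothelial markers lay from -0.46 for Eng to 0.15 for Esam, 4 of 7 lower, with summed signals of 1883 and 1785. No smooth muscle or endothelial marker was at 0, and the part of any list in the Ptgis difference was not tested. In bulk tissue, fewer cells of a type and less RNA per cell cannot be told apart.

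Ptges encodes the inducible microsomal prostaglandin E synthase, which is often coupled to Ptgs2. Its brighter probe set read 70.2 and 66.7 in control and Cbs null, 1.05-fold lower, and the other read 22.8 and 21.4, below the floor. Ptges thus hardly differed in the sample in which Ptgs2 was below the floor. The pair of probe sets shared by Ptges3, a cytosolic synthase and HSP90 co-chaperone also known as p23, and Ptges3-ps read 1799 and 1832 in the one and 1652 and 1634 in the other. These were differences of 1.02-fold and 1.01-fold in opposite directions. Ptgds, the lipocalin-type prostaglandin D synthase gene, was not above the floor on either array, with 42.0 and 27.3 in its brighter probe set and 3.2 and 11.4 in the other. The control value of 42.0 lay just under the floor.

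Hpgd encodes 15-hydroxyprostaglandin dehydrogenase, the enzyme that starts the inactivation of prostaglandins. It was the measured member with the highest ratio, with 324.7 in control and 429.1 in Cbs null, 1.32-fold higher. Its second probe set read 55.4 and 68.4, 1.23-fold higher, so both went the same way. The log2 ratio of the brighter probe set, 0.40, was 2.7 times the technical SD, and 8.35% of measured genes had a ratio at least as high. All 7 luminal and glandular epithelium markers were higher in the same sample, from 0.29 for Epcam to 0.90 for Krt19, with a summed signal of 3155 in control and 4789 in Cbs null. All 7 macrophage and dendritic cell markers were higher too, from 0.16 for Mrc1 to 0.62 for Csf1r, with summed signals of 3880 and 5442. No marker of either list was at 0, and Hpgd lay within the range of both. It also lay within the ranges of the decidual, mast cell and immediate early lists described below. Hpgd lay within the mesothelial range only through Krt19, as Msln, Upk3b and Wt1 were lower, at -0.26, -0.29 and -0.2. The part of these lists in the Hpgd difference was not tested.

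**Figure D2:**
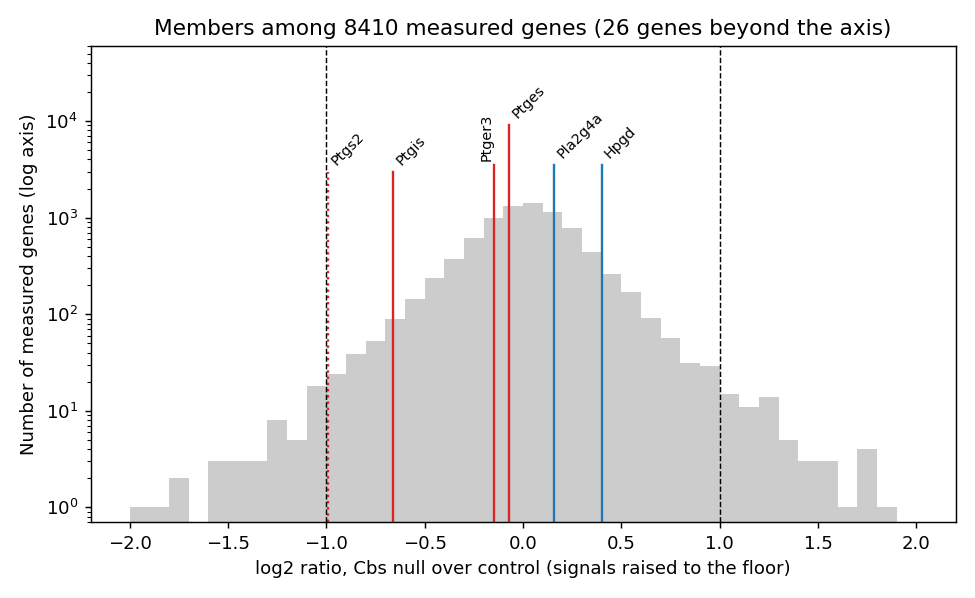
Log2 ratio of Cbs null over control for 8410 measured genes (grey histogram, log count axis) with the 6 measured members as vertical lines (red lower, blue higher in Cbs null) and 2-fold as dashed lines. Ptgs2 (dotted, a bound) and Ptgis lie in the lower tail at -0.99 and -0.66, and Hpgd lies on the upper side at 0.40.

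The receptor genes were represented by Ptger3, which encodes EP3, a prostaglandin E2 receptor that lowers cyclic AMP and favours contraction in smooth muscle. Its brighter probe set read 855.6 in control and 770.8 in Cbs null, 1.11-fold lower. That log2 ratio of -0.15 was as large as 1 technical SD. It was above the highest smooth muscle marker, Tagln at -0.19, by less than that SD. The second Ptger3 probe set read 2.1 and 4.5. Ptgfr, the receptor for prostaglandin F2-alpha, stayed below the floor in all 3 of its probe sets, from 1.1 to 21.0 in control and from 3.3 to 23.2 in Cbs null, so no direction can be given for it.

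Markers of decidual stroma and of cytokine response are relevant beside Ptgs2, whose product supports decidualization and whose transcription is induced by inflammatory signals. Of 7 decidual markers, Prl8a2 and Tdo2 were below the floor in Cbs null, with 424.4 and 5.8 for Prl8a2 and 685.3 and 27.4 for Tdo2, and Des, also a smooth muscle marker, was lower at -0.68. The other 4 of them, Bmp2, Wnt4, Hand2 and Hoxa10, lay from 0.02 to 0.48. The summed signal of the list was 5596 in control and 3602 in Cbs null. Des, which is counted in the smooth muscle sum too, made up 2994 and 1869 of these. Of 14 immediate early and NF-kB genes, 10 were measured, 7 of these higher and 3 lower, from -0.57 for Atf3 to 0.63 for Fos. The summed signal of that list was 7688 in control and 8770 in Cbs null. The inducer genes Il1b, Tnf and Il6 were below the floor on both arrays. Of 6 uterine natural killer markers, Gzma, Gzmb and Gzmc were below the floor in Cbs null alone, while Nkg7, Klrd1 and Prf1, above the floor on both arrays, stood at 0.09, -0.11 and -0.22. That list summed to 647.2 in control against 274.8 in Cbs null. No marker of these 3 lists was at 0, and their part in the Ptgs2 difference was not tested.

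**Figure D3:**
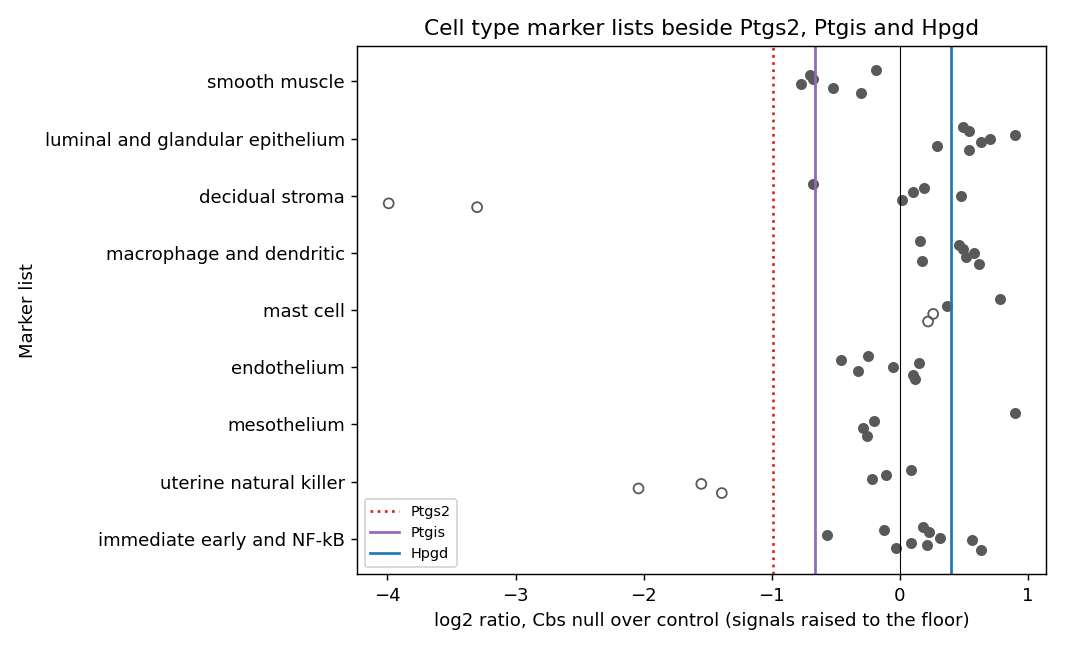
Log2 ratio of Cbs null over control for each measured marker gene, by list, with open circles for genes above the floor on 1 array only (bounds) and vertical lines for Ptgs2 (dotted, a bound), Ptgis and Hpgd. Ptgis falls within the range of the smooth muscle markers. It falls within the decidual and uterine natural killer ranges only through open circles or Des, also a smooth muscle marker. Hpgd falls within the ranges of the epithelial, macrophage, mast cell, decidual and immediate early markers. It falls within the mesothelial range only through Krt19, also an epithelial marker.

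The wider pathway was described from a list of 67 further genes grouped by role, of which 57 had a probe set of their own and 39 were measured. Of these, 2 were at least 2-fold higher in Cbs null and none was lower by that much, beside 0.797% and 0.713% of measured genes. At 1.5-fold, 5 were higher and none lower, beside 3.60% and 3.39% of measured genes. The median log2 ratio was 0.00, with 19 genes higher and 19 lower by any amount. For Pla2g10, Ltc4s and Cyp2j6 only the Cbs null signal exceeded the floor, which fixed their direction as higher. Pla2g10 is counted at both marks, and all of them are among the 19 higher. Leaving them out gave a median of -0.01 over 36 genes. The pathway counts are thus a description only.

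Phospholipases held both of the genes past 2-fold. Pla2g7, the lipoprotein-associated enzyme that breaks down platelet-activating factor and does not release arachidonic acid in the main, read 84.4 in control and 180.4 in Cbs null, 2.14-fold higher. Its log2 ratio of 1.1 was 0.87 with a pseudocount and 0.58 with the 60th percentile as floor, both under 2-fold. Pla2g10, a secreted phospholipase, read 22.6 and 100.8, at least 2.33-fold higher, and passed the floor on the Cbs null array alone. Plaat3, listed under its older name Pla2g16, read 377.9 and 357.8, 1.06-fold lower, and the lysosomal enzyme gene Pla2g15 read 124.7 and 135.7, 1.09-fold higher. Pla2g6 and Pla2g12a, named after their values were seen, were 1.34-fold lower (139.4 and 104.1) and 1.20-fold lower (58.2 and 48.7). Of the 6 measured genes of the role, 3 were higher and 3 lower, and 8 others were below the floor on both arrays.

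Among the other synthases and reductases, the carbonyl reductase genes stood highest. Cbr3 read 215.7 in control and 406.1 in Cbs null, 1.88-fold higher. Cbr2 read 247.2 and 372.7, 1.51-fold higher, and Cbr1, named after its value was seen, 234.9 and 286.9, 1.22-fold higher. Some carbonyl reductases can interconvert prostaglandins E2 and F2-alpha, but they act on many other carbonyl compounds too. Ptges2 and Hpgds, further synthase genes picked out in the same way, had log2 ratios of -0.26 and -0.18. Of 6 mast cell markers, a cell type known to use Hpgds, 4 were measured. Cma1 and Kit, above the floor on both arrays, stood at 0.37 and 0.78, and Cpa3 and Tpsb2 passed the floor in Cbs null alone, so they could only read higher. The mast cell list summed to 206.2 in control and 330.6 in Cbs null. Mesothelial markers lay from -0.29 for Upk3b to 0.90 for Krt19, which is also on the epithelial list, 3 of 4 lower.

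In transport and breakdown, Ptgr1, which acts after Hpgd in the same route of inactivation, read 335.6 in control and 247.7 in Cbs null, 1.35-fold lower. Its log2 ratio of -0.44 was thus opposite to that of Hpgd. Ptgr2, another gene of this role picked out after its value was seen, hardly differed, at 66.7 and 65.3 (-0.03). Another Ptgr2 probe set read 64.5 and 58.7. The uptake transporter gene Slco2a1 read 113.9 and 134.5, 1.18-fold higher, with its other probe sets below the floor. Of the 4 measured genes of this role, 3 were lower, and none reached 1.5-fold in the probe set that stands for it. The probe sets of Slco3a1, another uptake transporter gene, disagreed in size, at 1.3-fold lower in that probe set (70.3 and 54.0), at least 1.94-fold lower in another (84.0 and 41.0) and at least 1.17-fold lower in the last (50.5 and 40.4).

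Among the receptor genes of the list, 5 of 12 were measured. Ptger4, the EP4 receptor gene, read 949.6 in control and 1119 in Cbs null, 1.18-fold higher, while its dimmer probe set was 1.03-fold lower. Ptger2, the EP2 receptor gene, named after its value was seen, read 107.1 and 151.8, 1.42-fold higher. EP2 and EP4 raise cyclic AMP, the opposite of EP3. Rxra, a nuclear receptor partner, was 1.15-fold higher by its brighter probe set but at least 1.14-fold lower by the other. The receptor genes Ptger1, Ptgdr, Ptgdr2 and Ptgir were below the floor on both arrays.

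In the neighbouring arachidonate branches, Alox15, a lipoxygenase gene, read 58.6 in control and 113.4 in Cbs null, 1.94-fold higher. Anxa1, an inhibitor of phospholipase activity, and Lta4h, which makes leukotriene B4, differed by 1.06-fold and 1.03-fold. Of the 16 measured genes of that role, Alox15 alone passed 1.5-fold.

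**Figure D4:**
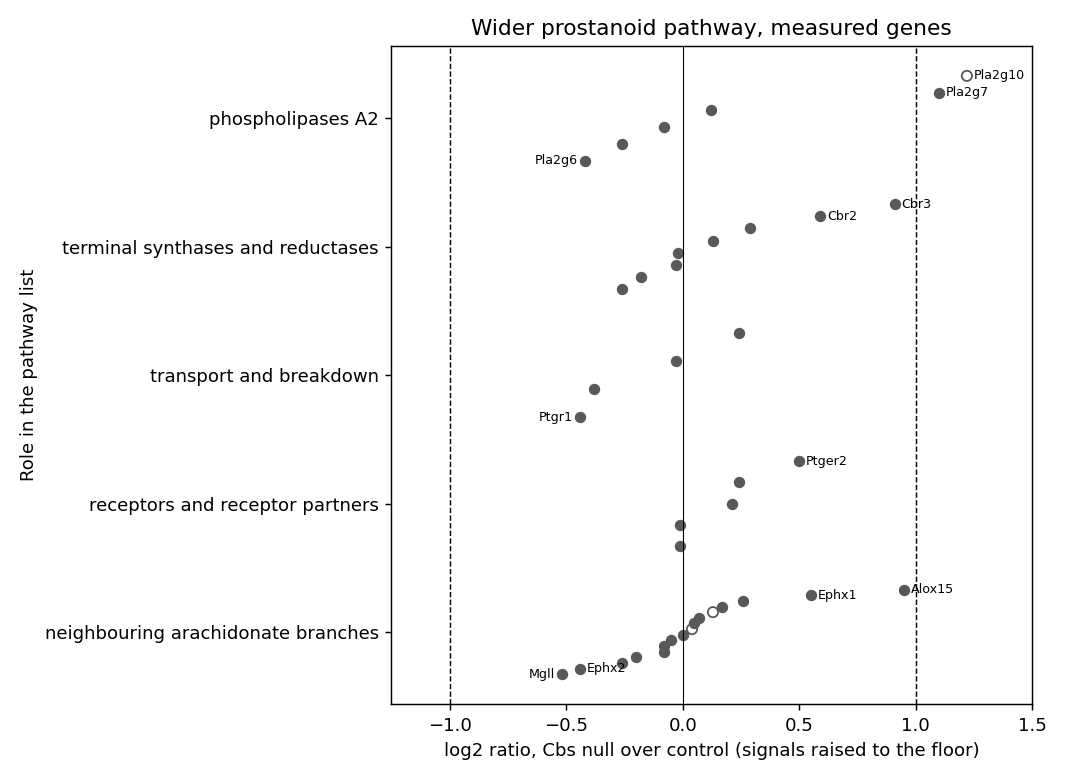
Log2 ratio of Cbs null over control for the 39 measured genes of the wider pathway list, by role, with open circles for genes above the floor on 1 array only (bounds) and dashed lines at 2-fold. Pla2g7 and Pla2g10 lie past the upper line and no gene lies past the lower one.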

How the data were processed

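The deposited table gives a linear intensity for every probe set on each array. The submitters' processing notes list GCOS 1.4; how signals were summarised and scaled is not given in the sources used here. Trimmed means (2% off each end) were 200.08 in control and 200.07 in Cbs null, so no further scaling was applied, and differences are relative to the whole array. Of 22626 probe sets other than Affymetrix controls, the platform annotation gave 20380 a single gene symbol, 691 several and 1555 none, and 20351 matched RefSeq genes (GRCm38.p6) by identifier.

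Among the probe sets named for a gene alone, the brightest by mean log2 signal after the floor stood for it. With 1 array per group there is no test, so 2-fold and 1.5-fold size rules were used. The calculation was tested on simulated data in which only genes well above the floor were changed, so bounds set by the floor were not tested. Members, lists and rules were chosen with earlier results of these data known. The text names all members, list genes at least 1.5-fold apart, the brightest 2 of each role, Cbs, and the highest and lowest of each marker list; other genes were picked after their values were seen. Python 3.11.15, NumPy 2.4.6 and pandas 2.3.3 were used. Alternatives were centring, quantile normalization, the 20th or the 60th percentile as floor, a pseudocount of 32, averaged probe sets, no _s_at or _x_at probe sets, and 1.5-fold and 3-fold thresholds.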

Additional observations from a re-analysis of the deposited data

How the results depend on the processing

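The number of members at least 2-fold lower, 0 as reported, was 1, namely Ptgs2, when centred, when quantile normalized or when the 20th percentile was the floor, and 2 with a 1.5-fold threshold. With the floor at the 60th percentile Ptgs2 was not measured. Its log2 ratio was -1.01 centred, -1.0 quantile normalized, -1.60 with the floor at the 20th percentile and -0.50 with probe sets averaged, where the probe set below the floor enters at 0. The number of pathway genes at least 2-fold higher, 2 as reported, was 4 with the floor at the 20th percentile (49 genes measured), 0 at the 60th (22 measured), 1 with the pseudocount, 5 at 1.5-fold and 0 at 3-fold. The cause of these shifts was not tested beyond the number of genes measured. Over 20 named genes and their alternatives, 127 of 134 log2 ratios moved by less than the technical SD, and 1, for Lta4h with probe sets averaged (0.04), changed sign. Settings under which a gene was no longer measured gave no value and are left out of the 134. A bright gene with 1 probe set could not move with most changes of floor or of probe sets, so this count is a description only. Ptgis ranged from -0.68 to -0.63 and Hpgd from 0.30 to 0.40. The member median was 0.01 with the floor at the 60th percentile and lay below 0 otherwise. No paired analysis was possible because each group has 1 array.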

Other observations

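Other ways of supplying or using arachidonic acid, picked out after their values were seen, also differed by less than 2-fold. Mgll, the monoacylglycerol lipase that frees arachidonic acid from an endocannabinoid, read 540.7 in control and 377.1 in Cbs null, 1.43-fold lower, and its other measured probe sets were 1.48-fold and 1.24-fold lower. The epoxide hydrolase genes stood on opposite sides, Ephx1 with 375.6 and 550.1, 1.46-fold higher, and Ephx2 with 118.5 and 87.4, 1.36-fold lower. Acsl4, which couples arachidonic acid to coenzyme A, was between 1.09-fold and 1.23-fold higher in its 3 probe sets.

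Ptger3 lies next to Cth, which encodes the enzyme that acts after cystathionine beta-synthase, among the protein-coding genes of chromosome 3.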
